A study of Rattus norvegicus with 6 samples.

Results

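A small set of accessible chromatin sites (ACS) of rat islets is listed with more than 1 nearest gene. ATAC-seq, in which the transposase Tn5 cuts and tags open chromatin, was performed on dissociated islet cells of Sprague-Dawley rats. The 2 groups were 3 libraries from adult males (Adult 4, 5 and 6) and 3 libraries from P10 pups of both sexes, pooled from a different litter each (P10 1, 2 and 3), all untreated. Age, sex and single rats against pooled litters therefore change together and cannot be told apart. The deposited table has a row for each ACS and nearest gene, and a distinct region (chromosome, start and end in Rn5) was taken as a member when its rows named different genes. Of 101603 distinct ACS, 318 met this rule, 298 with 2 genes and 20 with 3. The rule itself uses no counts.

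The genes concerned belong mostly to families that lie in arrays of close copies. Vomeronasal and olfactory receptors detect pheromones and odours and are expressed in sensory neurons of the nose. Ly49 and Pirb proteins are receptors of natural killer cells and other leukocytes, and the RT1 genes encode the MHC class I molecules of the rat. MHC class I is made by most nucleated cells. In bulk islet cells, a site open in fewer cells and a site less open in each cell cannot be told apart.

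The 318 ACS carried 82 gene identifiers in 39 combinations, 35 of 2 genes and 4 of 3. A RefSeq symbol (GRCr8) was found for 67 of the 82 identifiers, and a gene among the other 15 is called an unnamed identifier here. In each of the 318 ACS the genes shared their strand and their annotated start, so the distance, the position word and the class were the same in all rows of a site. In 22 combinations the whole annotated span was the same, and in 17 only the far end differed. No member lay between divergent or convergent genes. The gene symbol column gave 1 symbol or none for 294 of the 318 ACS and different symbols for 24. Of the 59 identifiers with both a symbol in the table and one in RefSeq, 14 had the same symbol in both. In 4 of the 39 combinations the genes lie on another chromosome in GRCr8 than in Rn5. Of the 24 combinations in which every gene was matched, 4 had genes that are direct neighbours in GRCr8.

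The promoter sequences show how alike the promoters of the paired genes are. RefSeq promoters of GRCr8, 250 bases before to 50 after a gene's start, were found for 56 of the 82 identifiers. In 17 combinations at least 2 genes had one, and the lowest identity within a combination had a median of 94.0% over 300 bases. It was at least 95% in 8 of the 17 combinations, among them Cers1 with Gdf1, whose promoter is the same window. The lowest were 47.7% for the keratins Krt33a, Krt33b and Krt31 and 68.7% for Spetex2h, Spetex2g and Spetex2b. Vom2r57 and Vom2r56, the pair with most ACS, differed at 5 of 300 bases, all substitutions. Both are shown because 136 ACS carry the names of both, and capitals mark the bases that differ. Vom2r57 is at chr7:18104731-18105030 and Vom2r56 at chr7:18008738-18009037 of GRCr8, both on the minus strand.
Vom2r57: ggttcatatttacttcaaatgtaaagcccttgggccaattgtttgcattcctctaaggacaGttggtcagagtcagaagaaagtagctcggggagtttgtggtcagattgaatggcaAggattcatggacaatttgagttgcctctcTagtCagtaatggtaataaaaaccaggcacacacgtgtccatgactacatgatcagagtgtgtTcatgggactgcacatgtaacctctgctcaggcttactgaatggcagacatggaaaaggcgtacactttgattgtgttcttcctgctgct
Vom2r56: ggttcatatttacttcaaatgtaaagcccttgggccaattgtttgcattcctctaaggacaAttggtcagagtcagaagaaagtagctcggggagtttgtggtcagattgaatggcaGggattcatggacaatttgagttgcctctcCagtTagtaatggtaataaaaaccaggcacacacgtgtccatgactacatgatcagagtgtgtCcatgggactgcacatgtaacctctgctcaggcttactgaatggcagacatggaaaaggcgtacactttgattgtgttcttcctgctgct

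Cers1, a ceramide synthase, and Gdf1, a ligand of the TGF-beta family, are known to share a transcript, and their RefSeq promoter was 1 identical window at chr16:19146431-19146730 of GRCr8, minus strand. It is shown as the pair whose promoter is the same, and capitals mark GGGCGG, the GC box. It held 30 CpG, against a median of 7 in the 33469 promoters of the table.
Cers1 and Gdf1: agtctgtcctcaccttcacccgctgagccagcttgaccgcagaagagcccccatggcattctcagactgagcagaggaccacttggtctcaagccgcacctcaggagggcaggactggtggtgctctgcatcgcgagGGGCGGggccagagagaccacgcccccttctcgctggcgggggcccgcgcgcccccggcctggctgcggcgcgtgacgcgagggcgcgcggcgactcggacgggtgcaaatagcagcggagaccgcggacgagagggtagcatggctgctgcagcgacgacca
RT1-CE11 and Rps9, a protein of the small ribosomal subunit, are shown as genes with an ACS over their annotated start. Capitals mark GGGCGG and CCAAT on either strand (CCGCCC and ATTGG are the reverse complements). RT1-CE11 is at chr20:3363149-3363448 and Rps9 at chr1:74430388-74430687 of GRCr8, both on the minus strand.
RT1-CE11: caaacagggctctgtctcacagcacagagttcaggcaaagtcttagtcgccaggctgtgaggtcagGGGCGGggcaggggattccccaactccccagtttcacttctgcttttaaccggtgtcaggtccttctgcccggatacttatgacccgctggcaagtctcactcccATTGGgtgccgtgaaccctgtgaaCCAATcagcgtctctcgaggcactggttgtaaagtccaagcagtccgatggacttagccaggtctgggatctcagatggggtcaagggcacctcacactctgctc
Rps9: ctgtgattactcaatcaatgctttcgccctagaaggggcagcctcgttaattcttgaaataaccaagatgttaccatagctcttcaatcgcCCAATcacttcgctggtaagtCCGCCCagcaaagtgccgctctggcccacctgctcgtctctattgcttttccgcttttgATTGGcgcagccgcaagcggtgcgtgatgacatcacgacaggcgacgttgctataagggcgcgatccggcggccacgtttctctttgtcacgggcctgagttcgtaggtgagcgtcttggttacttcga

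The promoters of the members' genes were poor in CpG, with a median of 2 per 300 bases against 7 in all promoters. Olfactory receptor promoters had a median of 1 and those of the vomeronasal receptors 2, whereas the MHC class I promoters had 9.5. GGGCGG was found on either strand in 14.3% of the 56 promoters and in 33.1% of all, and CCAAT in 42.9% against 37.5%. TATAAA was present in 19.6% against 14.2%. CCGGAAGT, GCATGCGC and CTCGCGAG were in none of the 56 promoters and in 3.81%, 2.47% and 0.723% of all promoters. AAGATGGC was in 1 of the 56, which is 1.79%, against 3.17% of all. These are matches of letters and not tests of binding.

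Mir295-1 and Mir295-2 encode copies of a microRNA of the cluster known from embryonic stem cells. Their hairpins of 81 bases were identical in RefSeq, so the copies cannot be told apart by their own sequence. The mature sequences are shown with the seed, bases 2 to 8, in capitals.
rno-miR-295-5p: aCUCAAAUguggggcacacuucu
rno-miR-295-3p: aAGUGCUAcuacuuuugggugu
The annotated span of both genes in the table was 3411005 bp on chromosome 1, from 63522985 to 66933989, although a hairpin has only 81 bases. Long spans occurred elsewhere too. In 9 of the 39 combinations the span was over 100000 bp, and these 9 held 179 of the 318 ACS, while the median span was 14440 bp.

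Most members were far from the gene they were listed with. The class was distal for 271 of the 318 ACS (85.2%, against 79.3% of all ACS), proximal for 31 and TSS for 16. The position was inside the gene for 160 ACS, upstream for 126, downstream for 24 and over the start for 8. The median distance to the start was 159376 bp, against 61062 bp in all ACS, and 183 members were at least 100000 bp away. They lay on 12 chromosomes, with 148 on chromosome 7, 52 on chromosome 1 and 38 on chromosome 4. Members were a little narrower (median 317.5 bp against 373 bp) and lower (median of the mean count 44.2 against 64.8). A mean count under 20 was found for 53 members, 16.7% against 10.6% of all ACS.

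The libraries held 7916919 to 11903909 integrations within ACS in adults and 13491534 to 21168463 in pups. Levels are therefore given as CPM, the count relative to the integrations in all ACS of a library, scaled by TMM factors of 0.93 to 1.04. Counts of 2 libraries of a group differed by more than sampling noise in every pair (chi-square over its degrees of freedom 3.35 to 7.81). As a check of the islet label, ACS nearest to 7 of 8 beta cell markers were present, with summed levels of 905 to 1043 CPM in adults and 851 to 1153 CPM in pups. ACS nearest to acinar markers, present for 4 of 5, summed to 312 to 352 and 302 to 305 CPM. Those nearest to endothelial markers summed to 326 to 395 and 280 to 296 CPM. The sums run over unequal numbers of ACS (88 beta, 46 acinar and 46 endothelial) and do not rank the cell types. Summed over its 28 ACS, Ins1 was at 191 CPM in adults and 286 CPM in pups, and Ins2 and Pdx1 were also lower in adults. These values of single genes, here and below, are group means of such sums, and their differences were not tested. Nkx6-1, Slc2a2, Ucn3 and Iapp were higher. Ptf1a was at 281 against 239 CPM, while Cpa1, Prss1 and Pnlip were lower in adults. Cdh5 and Kdr were higher in adults and Pecam1 lower.

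Adults were compared with pups to see which ACS change with postnatal maturation. With the quasi-likelihood F test of edgeR over all ACS, called at p under 0.05 and FDR under 0.2, 31 of the 318 members were Up in adults and 12 Down. Over all ACS 12.3% were Up and 6.63% Down, and the members' shares were 9.75% and 3.77%. The Up share of members was also below that of all ACS when any of 5 libraries was left out, but above it without Adult 4 (12.6% against 9.56%). Within the distal class, 31 of 271 members (11.4%) were Up and 10 (3.69%) Down, against 13.8% and 6.45% of all distal ACS. The 6 libraries separated by age with no overlap at 58 members (18.2%), higher in adults at 38 and lower at 20, and at 24.7% of all ACS. The median log2 fold change was 0.09 in members and -0.01 in all ACS. The split of the calls moved with the scaling. It was 26 Up and 18 Down with column sums in place of TMM, where all ACS had 10447 Up and 10732 Down. It was 1 Up and 142 Down with total reads as library sizes, which moved the median of all ACS to -0.84.

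**Figure D1:**
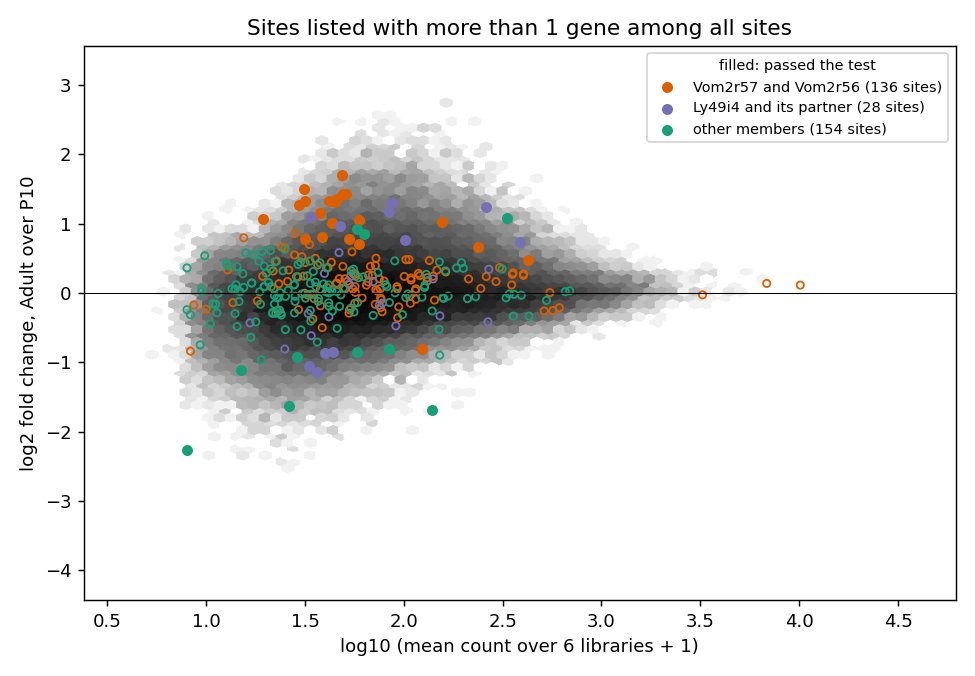
Log2 fold change of Adult over P10 against the log10 mean count, for all ACS (grey hexagons, darker for more ACS) and for the members (points, filled where the test was passed). The 3 members with the largest counts lie at the right, near 0, and most filled points above 0 belong to Vom2r57 and Vom2r56.

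Calls were found in 9 of the 39 combinations and none in the other 30. The Vom2r57 and Vom2r56 sites had 21 of the 31 Up calls (67.7%) and 1 Down call, and were 42.8% of the members. Their own Up share of 15.4% was near the 13.8% of all distal ACS, and their Down share of 0.74% was below the 6.45% of those ACS. Within the annotated span of these genes, 84 ACS are listed with 1 gene, and 4 of them were Up (4.76%) and 0 Down. The median log2 fold change of these 84 was 0.22, against 0.21 at the sites of the pair. Ly49i4 and an unnamed identifier had 7 Up and 4 Down. Each of Cers1 with Gdf1 and Tmigd3 with an unnamed identifier had 1 Up and 1 Down. Or1d2 with Olr1520 had 1 Up. Down calls were also found at Vom1r39 with Vom1r34 (2 ACS), and at 1 ACS each of Prr4, Or2t45b with Olr1451 and Or8c11 with Or8c20.

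Vom2r57 and Vom2r56 are vomeronasal type 2 receptors, and 136 ACS on chromosome 7 were listed with both. All 136 lay inside an annotated span of 3845993 bp (19253646 to 23099638, minus strand), between 138974 and 1846238 bp from the shared start. None was at that start. Before the calls of this span are given, 1 library has to be singled out. In Adult 5 the summed level of the 136 ACS was 3181 CPM, against 2018 in Adult 4, 2482 in Adult 6, and 1956, 2526 and 2504 in P10 1, 2 and 3. Adult 5 was thus the highest library and Adult 4 and P10 1 the lowest, and the groups overlapped. Adult 5 was the highest of the 6 libraries at 96 of the 136 ACS (70.6%), but at 29.1% of the other 182 members and 16.6% of all ACS. The 84 ACS of the same span that are listed with 1 gene shared this feature, as Adult 5 was highest at 72.6% of them. Their summed level was 517 CPM in Adult 5, 296 and 382 in Adult 4 and 6, and 312 to 357 in pups. At the 182 members elsewhere the sums were 1034 to 1094 CPM in adults and 965 to 1044 CPM in pups, and Adult 5 was not the highest. Their median level was still highest in Adult 5 (2.97 CPM) and lowest in Adult 4 (2.08 CPM), with 2.45 in Adult 6 and 2.25 to 2.72 in pups. The median log2 fold change of these members was 0.002, and it was -0.08 without Adult 5 and 0.11 without Adult 4. A weaker form of the pattern was thus present outside the span.

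The calls of this span changed with the libraries in the fit. Without Adult 5, 12 of the 21 were still called Up, and the median log2 fold change of the 136 ACS went from 0.21 to -0.02. Without Adult 4 the median went to 0.40 and 29 ACS of the span were Up, 20 of the 21 among them. With each of the other 4 libraries left out in turn the median was 0.07 to 0.26. Leaving out P10 1 kept 14, leaving out P10 2 or P10 3 kept 16, and leaving out Adult 6 kept 17. Whichever library was omitted, 10 of the 21 stayed Up. Without Adult 5 the span had 4 Down calls in place of 1. Of all 31 Up members, 15 were called again in each of the 6 fits, and of the 12 Down members 3. In these fits all ACS had 7973 to 13232 Up and 3285 to 7215 Down calls, against 12504 and 6738 with every library. How many of all called ACS were called again in each fit was not counted. Whether members lose calls more often than other ACS is therefore not shown.

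The Up calls were placed unevenly along the span. Of the 68 ACS farther from the start, 19 were Up and 1 Down, and of the 68 nearer ones 2 were Up, a split chosen after the values were seen. The median log2 fold change was 0.28 in the farther and 0.16 in the nearer ACS. The largest fold change was at chr7:21744292-21744552 of Rn5, with 46, 82 and 53 counts in adults and 19, 23 and 62 in pups. Scaled for depth these are 4.16, 7.99 and 6.83 CPM against 0.88, 1.64 and 3.28 CPM, so that the groups did not overlap. The log2 fold change was 1.70 ± 0.38 (SE), with an edgeR FDR of 0.00343. The call held whichever library was omitted.

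An ACS with a tighter group of adults was chr7:22119651-22120019, with 49, 56 and 46 counts in adults and 26, 34 and 52 in pups. Its level was 5.27 ± 0.77 CPM in adults and 2.13 ± 0.81 CPM in pups (SD, n = 3 each), a log2 fold change of 1.31 ± 0.34 (SE). The highest of the Up sites was chr7:22177063-22177784, at 37.6 ± 1.25 CPM in adults and 27.0 ± 4.08 CPM in pups (SD, n = 3 each). Its log2 fold change was 0.48 ± 0.17 (SE). It was 0.36 without P10 1 and 0.46 without P10 3, where the call was lost (edgeR FDR 0.232 and 0.214). The Down site, chr7:22223692-22224035, had 72, 65 and 37 counts in adults and 207, 159 and 193 in pups. It fell by 0.81 on the log2 scale (SE 0.24, edgeR FDR 0.0338), again whichever library was omitted.

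A cluster of 3 ACS in this span held a large part of the integrations of all members. They lay within 3542 bp, 608186 to 611240 bp from the shared start, and took 42.7% of the integrations in members (39.8% to 45.5% per library). The site chr7:22491452-22491939 had 6689, 10120 and 5694 counts in adults and 12742, 11143 and 14394 in pups and ranked 12 of all 101603 ACS by mean count. Site chr7:22488398-22488871 had 4690, 6547 and 4066 counts in adults and 8846, 7231 and 9737 in pups and ranked 21. The third, chr7:22490212-22490456, had 2063, 3005 and 1669 against 4304, 3367 and 5054 counts and ranked 62. None passed the test, with log2 fold changes of 0.11 ± 0.15, 0.14 ± 0.14 and -0.03 ± 0.16 (SE). Adult 5 was again the highest library in each, at 986, 638 and 293 CPM.

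**Figure D2:**
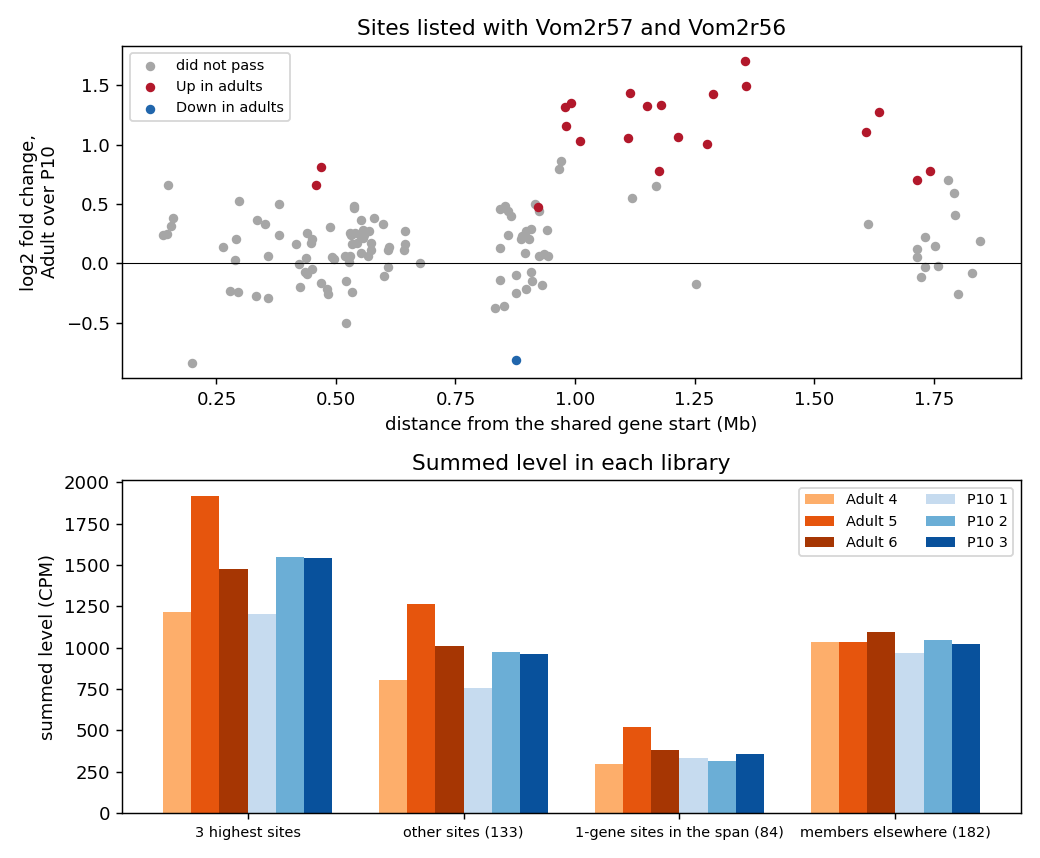
Top, log2 fold change of Adult over P10 for the 136 ACS listed with Vom2r57 and Vom2r56 against the distance from their shared start in Mb, coloured by the result of the test. Bottom, summed level in CPM of each library (bars) for 4 sets of ACS, with Adult 5 the highest bar in the first 3 sets and all libraries between 965 and 1094 CPM in members elsewhere.

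The other vomeronasal pairs were few and low. At Vom1r39 and Vom1r34, type 1 receptors, both ACS on chromosome 9 were Down. Site chr9:100806948-100807149 had 1, 2 and 1 counts in adults and 13, 8 and 17 in pups, and fell by 2.26 on the log2 scale (SE 0.68, edgeR FDR 0.0320). The other, chr9:100780604-100780833, had 8, 6 and 3 counts against 22, 23 and 22 and fell by 1.11 (SE 0.48, edgeR FDR 0.169), a call that was lost without P10 2, P10 3, Adult 5 or Adult 6. The groups did not overlap at either ACS, but so few counts were found in adults that the size of the change is imprecise. None of the 7 ACS of Vom1r16 with Vom1r17 or the 3 of Vom2r30 with Vom2r29 passed the test.

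Ly49i4, a killer cell lectin-like receptor, and an unnamed identifier shared 1 span of 5672 bp on chromosome 4 (134830297 to 134835968, minus strand). Their 28 ACS were 37687 to 364310 bp from the start, 15 downstream and 13 upstream, so none touched the genes themselves. Among the 28 ACS, 7 were Up and 4 Down. Of the 15 downstream ACS 6 were Up (40%) and 2 Down (13.3%), and of the 13 upstream ones 1 was Up (7.69%) and 2 Down (15.4%). This split by side was not planned before the values were seen. The shares of all distal ACS were 13.8% Up and 6.45% Down. Site chr4:134747362-134747582 had 123, 90 and 80 counts in adults and 86, 56 and 80 in pups. At 10.1 ± 1.19 CPM against 4.07 ± 0.13 CPM (SD, n = 3 each) the groups were well apart, with a log2 fold change of 1.30 ± 0.25 (SE, edgeR FDR 0.000979). Site chr4:134790349-134790738 had 116, 94 and 64 against 90, 53 and 84 counts and a log2 fold change of 1.17 ± 0.26 (SE, edgeR FDR 0.00317).

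At chr4:134500975-134501669 the adults were spread more widely, with 329, 186 and 328 counts or 29.7, 18.1 and 42.3 CPM, against 313, 133 and 263 counts or 14.6, 9.49 and 13.9 CPM in pups. The log2 fold change was 1.24 ± 0.24 (SE, edgeR FDR 0.001). The site with most counts, chr4:134726451-134727391, had 426, 354 and 309 counts in adults and 447, 306 and 474 in pups, a log2 fold change of 0.74 ± 0.17 (SE, edgeR FDR 0.00559). These 4 calls did not depend on a single library. Of the 11 called ACS, 7 to 10 were called again when a library was left out.

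Site chr4:134925937-134926259, upstream, went the other way with 11, 14 and 16 counts in adults and 63, 47 and 62 in pups. It fell by 1.14 on the log2 scale (SE 0.37, edgeR FDR 0.0535), a call lost without Adult 4 (FDR 0.211). Up and Down ACS were close to each other on the downstream side. The Down site chr4:134720068-134720426 (28, 18 and 14 against 71, 67 and 58 counts) is a neighbour of the Up site with most counts, and its call was lost without P10 2, Adult 5 or Adult 6 (edgeR FDR 0.26 to 0.465). Ly49 receptors are leukocyte genes, and ACS nearest to 2 of 3 leukocyte markers summed to 19.1 to 27.6 CPM in adults and 21.5 to 31.3 CPM in pups, with overlapping groups. The part of leukocytes in these calls was not tested. None of the 20 ACS upstream of Pirb, an inhibitory receptor of leukocytes, passed the test, and their mean counts were 9.5 to 73.

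**Figure D3:**
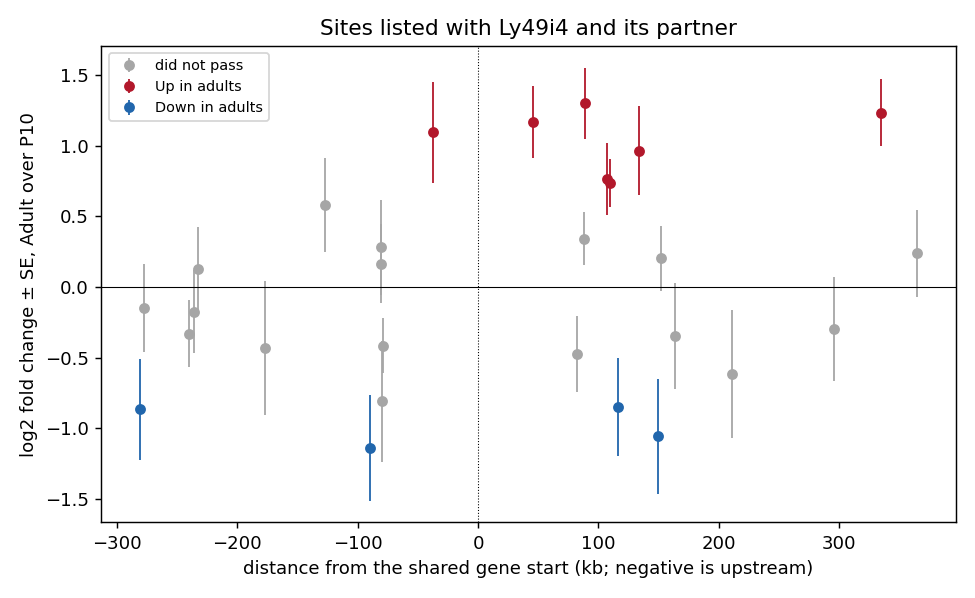
Log2 fold change of Adult over P10 with its SE for the 28 ACS listed with Ly49i4 and an unnamed identifier, against the distance from the shared start in kb (negative is upstream). The 7 Up and 4 Down ACS are coloured, and 6 of the 7 Up ACS are on the downstream side, which holds 15 of the 28 ACS. The split by side was not planned before the values were seen.

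Members at a start were the accessible promoters of the set. The highest was chr20:6779098-6779786 over the start of RT1-CE7 and RT1-CE11, MHC class I genes, with 619, 580 and 275 counts in adults and 1232, 655 and 776 in pups. This is 49.3 ± 11.99 CPM and 48.3 ± 8.24 CPM (SD, n = 3 each), and the log2 fold change of 0.03 ± 0.18 (SE) did not pass the test. The start of Mboat7, which acylates lysophosphatidylinositol, was covered by chr1:63023065-63024495, classed as proximal. It had 598, 487 and 309 counts in adults and 993, 651 and 892 in pups, and 47.1 ± 7.11 against 46.6 ± 0.52 CPM (SD, n = 3 each). At Myl6, a light chain of myosin, chr7:2882281-2883047 was at 21.6 ± 3.94 CPM in adults and 27.3 ± 4.43 CPM in pups (SD, n = 3 each), with a log2 fold change of -0.33 ± 0.19 (SE). At Rps9, chr1:63081973-63082579 was at 11.6 ± 1.46 and 12.02 ± 0.34 CPM (SD, n = 3 each). None of the 16 ACS of the TSS class was called. Of all 11055 ACS of this class 2.73% were Up and 7.87% Down, so few calls would be found among 16 at those shares.

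RT1-N2 is another MHC class I gene. Site chr20:5244415-5244856, 679 bp upstream of the start that it shares with an unnamed identifier, had 2, 0 and 208 counts in Adult 4, 5 and 6 and 0, 645 and 50 in P10 1, 2 and 3. Counts were thus highest in 1 library of each age, 50 in P10 3 and at or near 0 in the rest. They did not follow age (log2 fold change -0.90 ± 1.01, SE). The other ACS of this pair, chr20:5236361-5237062, had counts in every library (153, 155 and 78 in adults, 291, 128 and 163 in pups). What sets the libraries apart at the first site was not tested.

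Cers1 and Gdf1 share the span 20698125 to 20712564 of chromosome 16. The ACS over the start, chr16:20712182-20712839, had 108, 88 and 48 counts in adults and 310, 151 and 194 in pups. It was lower in each adult library (6.19 to 9.76 CPM) than in each pup library (10.3 to 14.4 CPM), yet an edgeR FDR of 0.204 was just above the limit, at a log2 fold change of -0.52 ± 0.24 (SE). Downstream, chr16:20697260-20697592 had 37, 52 and 25 counts against 204, 73 and 107, and fell by 0.81 on the log2 scale (SE 0.30, edgeR FDR 0.0987). Farther downstream, chr16:20686732-20687018 rose, with 77, 61 and 41 against 121, 23 and 50 counts and a log2 fold change of 0.85 ± 0.34 (SE, edgeR FDR 0.128), while its groups overlapped. Neither call held without Adult 4 (edgeR FDR 0.257 and 0.301). The first was also lost without P10 1 or Adult 6, and the second without P10 2 or P10 3.

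**Figure D4:**
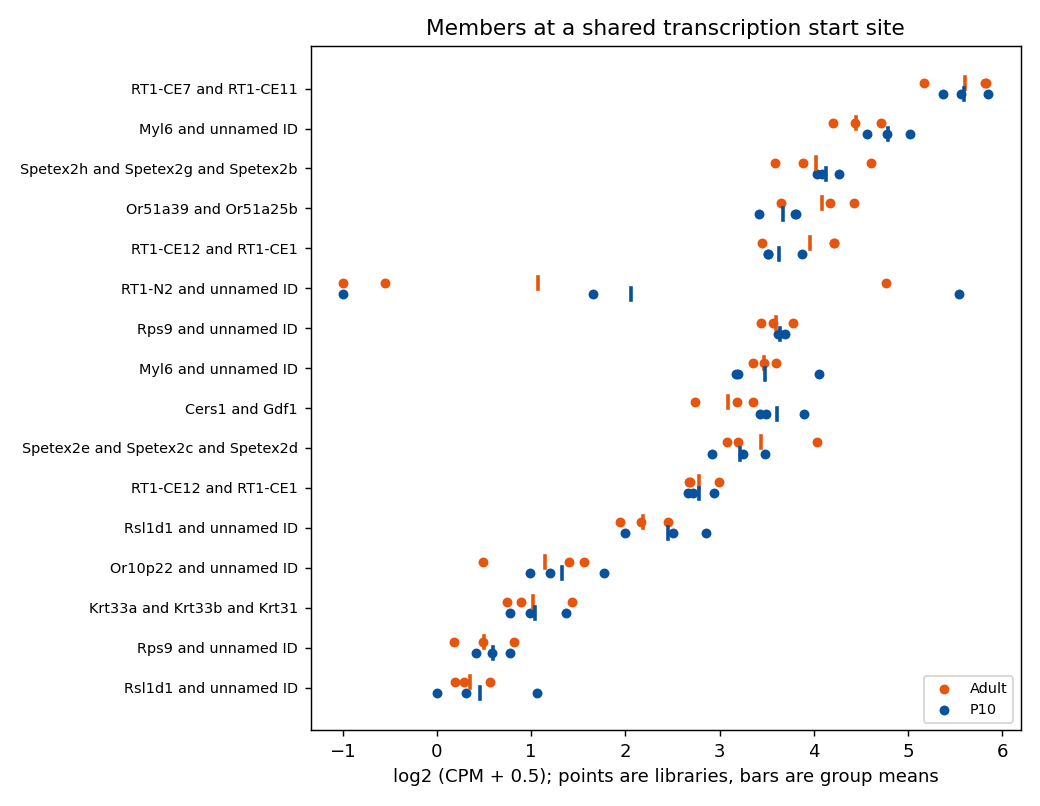
Level of each library as log2 (CPM + 0.5) at the 16 members of the TSS class, named by the genes that share the start, with bars for the mean of the log values in each age group. The groups overlap in 15 of the 16 ACS, and the libraries are widest apart at RT1-N2. Of all 11055 TSS ACS, 579 were higher and 1723 lower in adults without overlap.

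The largest single changes outside the arrays were at Prr4 and Tmigd3. Prr4 encodes a proline-rich secreted protein, and chr4:229948980-229949290, 1738 bp inside the gene, had 34, 56 and 32 counts in adults and 184, 250 and 273 in pups. At 4.22 ± 1.19 CPM against 13.6 ± 4.69 CPM (SD, n = 3 each) it fell by 1.68 on the log2 scale (SE 0.29, edgeR FDR 0.000256). Tmigd3 encodes a transmembrane protein with an immunoglobulin domain. The site chr2:227717647-227718183, 25982 bp upstream, had 407, 337 and 297 counts in adults and 361, 183 and 395 in pups. This is 36.0 ± 2.82 against 16.9 ± 3.92 CPM (SD, n = 3 each), a log2 fold change of 1.08 ± 0.19 (SE, edgeR FDR 0.000362). Neither call depended on a single library.

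Nearer to Tmigd3, chr2:227734520-227734794 had 1, 4 and 17 counts in adults and 39, 52 and 39 in pups. It fell by 1.63 on the log2 scale (SE 0.57, edgeR FDR 0.0732), but Adult 6, at 2.19 CPM, was above 2 of the 3 pup libraries, and the call was lost without P10 2, Adult 4 or Adult 5. The ACS upstream of Adora3, the adenosine A3 receptor, had 68, 66 and 42 counts in adults and 171, 101 and 137 in pups and did not pass the test.

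The olfactory receptors were spread over 14 combinations and 46 ACS of low level (median 1.65 CPM), of which 1 was Up and 2 Down. Of all ACS, 12.3% were Up and 6.63% Down. Or1d2 with Olr1520 had the Up site, chr10:60920101-60920423, with 76, 70 and 25 against 99, 24 and 48 counts and a log2 fold change of 0.92 ± 0.35 (SE, edgeR FDR 0.0999). Its groups overlapped, and the call was kept only without P10 1 and without Adult 6. The Down sites were chr11:58571761-58572029 of Or2t45b with Olr1451 (41, 20 and 18 against 91, 66 and 107 counts) and chr4:1147474-1147676 of Or8c11 with Or8c20 (6, 17 and 13 against 49, 34 and 48 counts). They fell by 0.86 (SE 0.32) and 0.93 (SE 0.41) on the log2 scale. The first was lost without P10 3, Adult 5 or Adult 6, and the second was kept only without Adult 5 and without Adult 6. The highest olfactory site, chr1:174061392-174062731 at the start of Or51a39 and Or51a25b, had 194, 124 and 163 against 289, 143 and 256 counts and did not pass the test.

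None of the 14 ACS upstream of Mir295-1 and Mir295-2 was called, and they were 118221 to 620752 bp from the start. The nearest, chr1:67052210-67053186, had most counts, with 335, 262 and 175 in adults and 698, 441 and 663 in pups. Each adult library (22.6 to 30.3 CPM) was below each pup library (31.5 to 35.0 CPM), with a log2 fold change of -0.33 ± 0.17 (SE, edgeR FDR 0.278). The 18 ACS of the Spetex genes, testis-expressed copies in 2 combinations of 3 genes on chromosome 15, had a median of 5.28 CPM and no call. Their highest site, chr15:9690369-9690704 inside Spetex2e, Spetex2c and Spetex2d, had 456, 243 and 354 against 669, 647 and 789 counts and a log2 fold change of -0.11 ± 0.20 (SE). Neither the 9 ACS of the MHC class I combinations nor the single ACS of the steroid dehydrogenases Hsd3b1 and Hsd3b3 and of the hair keratins Krt33a, Krt33b and Krt31 was called. Of the gene lists searched, cytosolic ribosome held 2 members (Rps9), small RNA genes 14, and olfactory and vomeronasal receptors 194, with 22 Up (11.3%) and 5 Down (2.58%) and a median log2 fold change of 0.12. The list of unnamed loci held 212, with 22 Up (10.4%) and 5 Down (2.36%). It overlaps the receptor list, as it takes in ACS of Vom2r57 and Vom2r56. These genes have RefSeq names, but LOC100359514 stands in the gene symbol column. In both lists 21 of the 22 Up ACS were those of Vom2r57 and Vom2r56, and the shares were below the 12.3% Up and 6.63% Down of all ACS. The remaining 14 lists, among them islet identity and secretion, solute carriers and collagens, held no member.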

How the data were processed

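Per the paper's methods, the authors aligned reads to Rn5 with BWA 0.7.13, discarded mitochondrial and low-quality reads, called peaks with MACS2 2.1.1 on the concatenated libraries of each age, joined them and used pyDNase to make the deposited counts, whole numbers of Tn5 cuts in each ACS and library. Whether PCR duplicates were removed is not given in the sources used here. The table also holds the authors' own comparison of ages (log2 fold change, log2 CPM, F, p-value and FDR), which was not used. Repeated rows of a region were reduced to 1, and the quasi-likelihood F test of edgeR 4.0.16 (R 4.3.3) with TMM factors was fitted to all ACS without a filter, with p-values adjusted by Benjamini-Hochberg over all of them. The SE is the log2 fold change divided by the square root of F. With 3 libraries a group, a permutation test of single values cannot go below 0.10, so none is given.

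Alternatives were DESeq2 1.42.0, limma 3.58.1 (voom), other scalings, a low-count filter that 303 members passed, every listed row kept, FDR under 0.05, and each library left out in turn. The test was checked on simulated counts. Of 200 ACS changed by 1 on the log2 scale, 39% were called in the right direction, and 20 unchanged ACS were called. More ACS than that were called in the data, so the share found there need not be the same. Members and gene lists were chosen with earlier results of these data known. Sites were named by a rule: the highest per arrangement, up to 12 Up and 12 Down by p, up to 4 per gene list and up to 4 with over 2 genes. Sites outside the rule, such as those of RT1, Myl6, Adora3, Or1d2, Or51a39 and the starts of Cers1, were chosen after their values were seen. Gene names and sequences are from RefSeq (GRCr8), and no coordinates were converted. ACS sequences were not used here. Intervals and SE cover replicate and counting error only, and whether replicates differ beyond technical spread rests on their being separate rats or litters.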

Additional observations from a re-analysis of the deposited data

How the results depend on the processing

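With total reads as library sizes, 1 member was called Up and 142 Down (44.7%, against 60.7% of all ACS). The median log2 fold change of members was -0.73, against -0.84 in all ACS. Among the sites named by the rule, the change turned from positive to negative under the same scaling at 5. These were the Spetex site chr15:9700771-9701204 (-0.456), the Ly49i4 site chr4:134726451-134727391 (-0.0913), the Mboat7 start (-0.81) and the Vom2r57 and Vom2r56 sites chr7:22488398-22488871 (-0.68) and chr7:22491452-22491939 (-0.69). Sites named outside the rule, among them the highest Up site of the Vom2r57 and Vom2r56 span, were not followed singly under this scaling. Whether their positive changes also turned negative is therefore not shown. At FDR under 0.05, 16 members were Up and 3 Down, and the shares of all ACS at this limit were not counted. Without the sites of the Vom2r57 and Vom2r56 span, an alternative chosen after the data were seen, 182 members remained. Of these, 10 were Up (5.49%) and 11 Down (6.04%), against 12.3% and 6.63% of all ACS, and their median was 0.00174. Leaving out each library in turn gave 23 to 40 Up calls, 7 to 15 Down calls and a median of -0.06 to 0.26. The 7 Down calls (2.20% of members) came without P10 2 and without P10 3, where 3.23% and 4.17% of all ACS were Down. The median was below 0 without Adult 5, where that of all ACS was -0.03. The column sums moved the median to -0.00553. Median-of-ratios factors, DESeq2, limma voom, the low-count filter and every listed row kept gave 29 to 31 Up calls, 10 to 15 Down calls and medians of 0.07 to 0.09. No paired analysis was possible because the groups share no replicate numbers. Counts of a few per library limit what could be shown at the lowest ACS, and 53 members had a mean count under 20.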
